A study of Helicoverpa armigera with 12 samples.

Results

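The cytosolic ribosomal proteins of the cotton bollworm *H. armigera*, a noctuid moth whose larvae feed on many crops, were followed through 3 life stages and both adult sexes. Members were the contigs, that is the single assembled transcripts, whose description from the nr protein database names a 40S or 60S ribosomal protein, with mitochondrial ribosomal proteins and kinases left out. The words were found in 255 contigs, of which 11 ended in the name of the mouse and were left out, and the remaining 244 contigs of 242 unigenes were the members, or 0.245% of the 99711 contigs of the table. RNA of whole bodies was sequenced in 12 pools, and no group carried a treatment. Each of 4 pools held 30 larvae of the 1st instar on day 3 after hatching, and each of 4 pools held 10 larvae of the 5th instar on day 1 after ecdysis. Adults were taken on day 1 after eclosion, 10 to a pool, with 2 pools of males (replicates 1 and 2) and 2 pools of females (replicates 3 and 4). The sex of the larvae was not stated. Levels are FPKM, a value scaled for the length of the contig and the mapped fragments of the library. The fragments behind a value are unknown, so no counting interval is given.

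A ribosome is built of a small subunit, which reads the messenger RNA, and a large subunit, which joins the amino acids, and each is a body of ribosomal RNA clothed by many small proteins. Because each ribosome holds each of these proteins in a fixed number, cells that build ribosomes need all of them in step, and their transcripts are among the most abundant of a growing cell. Making ribosomes is among the main costs of growth in insect tissues, and in females the nurse cells of the ovary also fill the egg with ribosomes for the embryo.

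The 244 members fell into 3 sets by level, with none between a mean of 1.05 FPKM and a mean of 21.3 FPKM over the 12 libraries. The first set was 78 contigs of 76 unigenes with 74 protein names, 32 of the small and 46 of the large subunit, with means from 657 to 7051 FPKM and a median of 2748 FPKM. They are called the abundant cytosolic contigs below. The second set was 4 contigs with means up to 61.5 FPKM whose descriptions point to an organelle or a bacterial kind of ribosome, so the label does not hold for them. The third set was 162 contigs at means of 1.05 FPKM or less, which together never held over 0.0921% of the FPKM of the members in a library. The Swiss-Prot description gave the same protein name as nr for 75 of the abundant cytosolic contigs and another for 2, among them c45372_g1_i1, which nr names L36A and Swiss-Prot L36. A further 4 contigs that only Swiss-Prot describes as cytosolic ribosomal proteins (L41, S30, L18 and SA) did not match the rule and stayed outside the counts. The highest of them, L41 (c90833_g1_i1), had a mean of 13486 FPKM, above every member.

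Ribosomal protein transcripts held the largest share of the RNA in 1st instar larvae and the smallest in adult males. Their share of the summed FPKM of a library was 30.3%, 27.5%, 28.3% and 30.01% in the 1st instar pools, 16.1%, 14.0%, 12.6% and 10.4% in the 5th instar pools, 8.96% and 7.33% in the male pools and 24.4% and 15.3% in the female pools. The 1st instar pools lay above all others and the male pools below all others, while the female pools reached from within the range of the 5th instar to above it. The mean share in 1st instar larvae was 2.19 times that in 5th instar larvae, and that in females 2.44 times that in males, without overlap between the groups in either case. The median FPKM of the 78 abundant cytosolic contigs was 5601, 4733, 4839 and 5881 in the 1st instar pools and 2679.6, 1907, 2169 and 1263 in the 5th instar pools. It was 685 and 600.2 in the male pools and 1595 and 839 in the female pools. The sum of all FPKM in a larval library was 1074573 to 1509632, and in an adult library 447094 to 688947. A share and an FPKM level therefore gave different answers for adults: 5th instar larvae had 2.16 times the median FPKM of adults but 0.947 times their share, with overlap of the groups in both measures. In whole bodies, fewer cells with many ribosomes and less of these RNAs in each cell cannot be told apart.

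**Figure D1:**
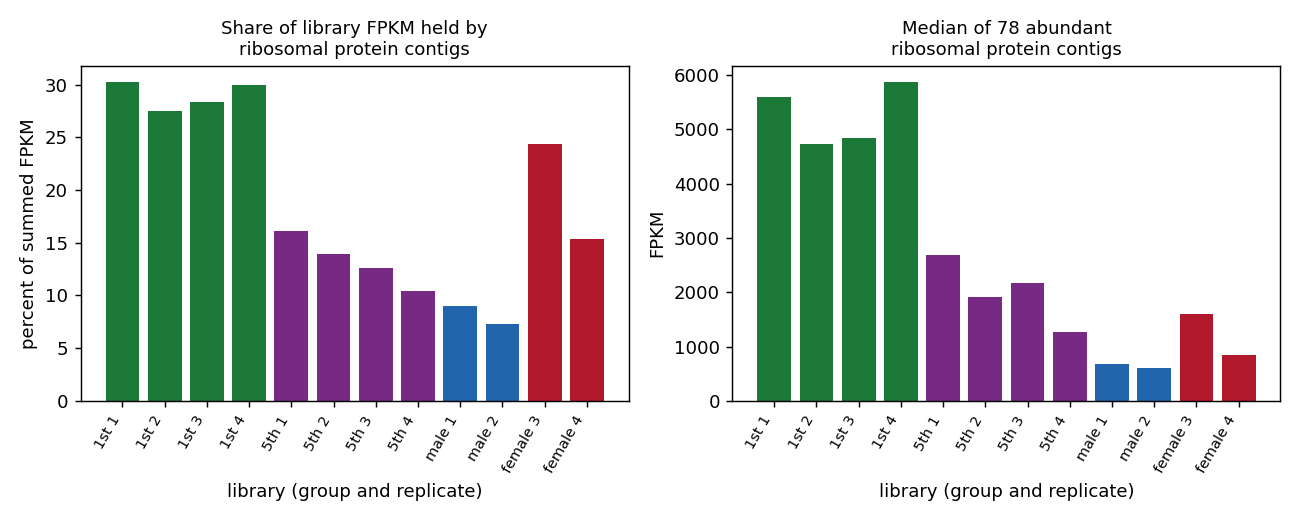
Bars give 1 value for each of the 12 libraries (group and replicate on the x axis): on the left the percent of the summed FPKM held by the 244 ribosomal protein contigs, on the right the median FPKM of the 78 abundant cytosolic contigs. The 1st instar bars, at 27.5% or more on the left, stand above all others in both panels, and the female bars stand far higher against the 5th instar bars on the left than on the right.

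The tissues of these pools also differed by stage. The summed FPKM of 144 trypsin and chymotrypsin contigs, enzymes of the gut, was 104419.9 to 116134 in 1st instar and 50921 to 134160 in 5th instar larvae but 349 to 827 in adults. That of 10 storage protein contigs, made by the fat body, was 42658 to 143335 in 5th instar larvae and at most 287 elsewhere. The storage protein list set the 5th instar apart. The trypsin and chymotrypsin list set larvae apart from adults, but overlapped between the 1st and the 5th instar. The part of these lists in the values of the ribosomal proteins was not tested. P-values below measure the spread between pools. In the stage comparisons male and female pools formed 1 group of adults, so that spread includes the difference between the sexes. With the sexes as separate groups, the calls over all contigs in adults against the 5th instar were 3616 higher and 6049 lower. With the sexes together they were 2022 and 5460. Stages were compared in 1 fit, so the 3 comparisons share libraries and are not independent.

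**Figure D2:**
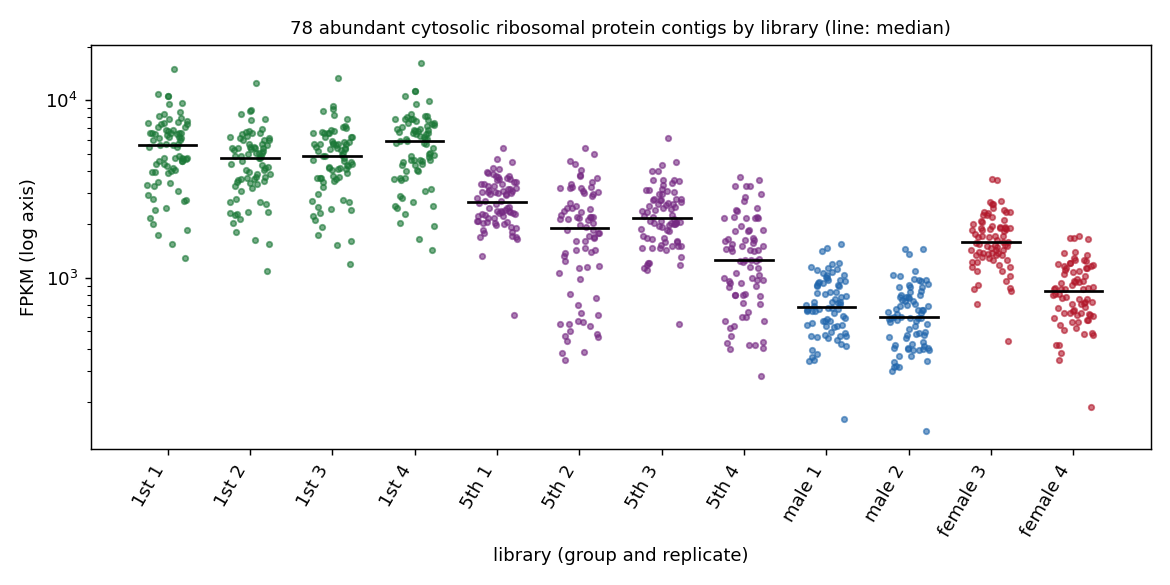
Each point is 1 of the 78 abundant cytosolic contigs in 1 library, with FPKM on a log axis and a line at the median of the library. The points shift together between stages, and they spread over a wider range in 5th instar replicates 2 and 4 than in replicates 1 and 3.

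In FPKM as deposited, nearly all abundant ribosomal protein transcripts were higher in the 1st instar than in the 5th. Of 83 members with a mean FPKM of at least 1, which entered the test, 76 were higher and 0 lower at an adjusted p below 0.05 (limma on log2(FPKM + 1), with adjustment over all 27678 contigs tested), against 21.7% of all contigs called higher and 18.4% called lower. At an unadjusted p below 0.05 the members called were 78, against 13602 of all 27678 contigs, in either direction. The median change of the 78 abundant cytosolic contigs was 1.36 on the log2 scale, beside -0.01 for all contigs, and their groups did not overlap for 74, against 24.4% of all contigs with the 1st instar above the 5th. Changes ranged from 0.72 to 2.44 with an SD of 0.28, beside an SD of 1.54 over all contigs tested. A further 209 contigs outside the members had means at least as high as the lowest abundant cytosolic contig. Of these, 61 were higher and 42 lower, at a median change of 0.37. By subunit, 29 of 32 small and 44 of 46 large subunit contigs were higher, with medians of 1.41 and 1.33. The number of calls depended on the scaling of the libraries. Of the 78 contigs 73 were higher with scaling by the median of ratios, 63 with libraries scaled to one sum (TPM) and 22 with quantile normalization, against 19.9%, 14.8% and 19.4% of all contigs called higher, at median changes of 1.29, 1.18 and 0.84.

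Among cytosolic members, S2 changed most. S2 (c49853_g1_i1), a protein of the small subunit near the entry of the messenger RNA, had 6785, 6711, 6811 and 7794 FPKM in the 1st instar pools, 2605, 701, 2102 and 726 FPKM in the 5th instar pools, 475 and 398 FPKM in the male pools and 1891 and 717 FPKM in the female pools. The 1st instar pools lay far above the rest, and the 5th instar pools split into a higher and a lower pair. Its change from the 5th to the 1st instar was 2.44 ± 0.52 (SE, limma adjusted p = 0.0038), or 4.58-fold by the means. The 5 abundant cytosolic contigs that did not pass were L4, P0, S15, S29 and S3, singled out after their values were seen. L4 (c58946_g1_i1), a large subunit protein reaching into the exit tunnel, had 1557, 1624, 1537 and 1663 FPKM in the 1st instar and 2334, 384, 1443 and 421 FPKM in the 5th. Here 5th instar replicate 1 stood above every 1st instar pool, and replicates 2 and 4 far below. Its change was 0.89 ± 0.56 (SE, limma adjusted p = 0.227).

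S23 had the highest mean of all members, although other members were higher in 5th instar replicate 4, both male pools and female replicate 3. S23 (c36657_g1_i1), a small subunit protein of the decoding centre, had 15014, 12477, 13259.9 and 16163 FPKM in the 1st instar pools, 5381, 5362, 6096 and 3287 FPKM in the 5th instar pools, 1195 and 1092 FPKM in the male pools and 3567 and 1717 FPKM in the female pools. It fell from stage to stage without overlap between 1st and 5th instar larvae, while the higher female pool lay within the range of the 5th instar. The change from the 5th to the 1st instar was 1.53 ± 0.34 (SE, limma adjusted p = 0.0044) and that from the 1st instar to adults -3.07 ± 0.34 (SE, limma adjusted p = 1.91e-05). P2 and L37 had the next highest means. L37 (c70861_g1_i1), a small zinc-binding protein of the large subunit, had 10588, 8818, 8940.2 and 11257 FPKM in the 1st instar pools, 3707, 3770.4, 2963 and 2835 FPKM in the 5th instar pools, 1472 and 1369 FPKM in the male pools and 2593 and 1686 FPKM in the female pools, with the stages apart in every library. The lowest abundant cytosolic contig, S9 (c46754_g2_i1), which helps to keep decoding accurate, had 1299.8, 1088, 1192 and 1435 FPKM in the 1st instar pools, 622, 481, 552 and 281 FPKM in the 5th instar pools, 162 and 138 FPKM in the male pools and 443 and 189 FPKM in the female pools. S9 followed the same order of stages as S23 at a far lower level.

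The stalk of the large subunit, which recruits the elongation factors, is made of P0 and of copies of P1 and P2, and its parts moved unequally. P0 (c54385_g1_i1), the base of the stalk, had 1739, 2155, 1945 and 2274 FPKM in the 1st instar pools, 2073, 553, 1479.8 and 539 FPKM in the 5th instar pools, 464 and 317 FPKM in the male pools and 1907 and 632 FPKM in the female pools. Its 1st instar pools overlapped with 5th instar replicate 1, and its change of 1.04 ± 0.55 (SE, limma adjusted p = 0.154) did not pass. P1 (c45553_g1_i1) had 4527, 3531, 4097 and 4815 FPKM in the 1st instar pools, 1944, 1859, 2064 and 1141 FPKM in the 5th instar pools, 473 and 398 FPKM in the male pools and 1533 and 578 FPKM in the female pools, and P2 (c53479_g3_i1) had 10515, 8699, 9257 and 11247 FPKM in the 1st instar pools, 4693, 3729.5, 4335 and 2702 FPKM in the 5th instar pools, 996 and 767 FPKM in the male pools and 3617 and 1301 FPKM in the female pools. Both were higher in every 1st instar pool than in any other pool. The changes from the 5th to the 1st instar were 1.30 ± 0.37 (SE, limma adjusted p = 0.0162) for P1 and 1.38 ± 0.40 (SE, limma adjusted p = 0.0165) for P2. The ratio of P2 to P0, both in FPKM, was 6.05, 4.04, 4.76 and 4.95 in the 1st instar pools, 2.26, 6.75, 2.93 and 5.01 in the 5th instar pools, and 1.90 to 2.42 in the adult pools. Adults thus had a low ratio in every pool, and the 5th instar pools split between a low pair (1 and 3) and a high pair (2 and 4).

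**Figure D3:**
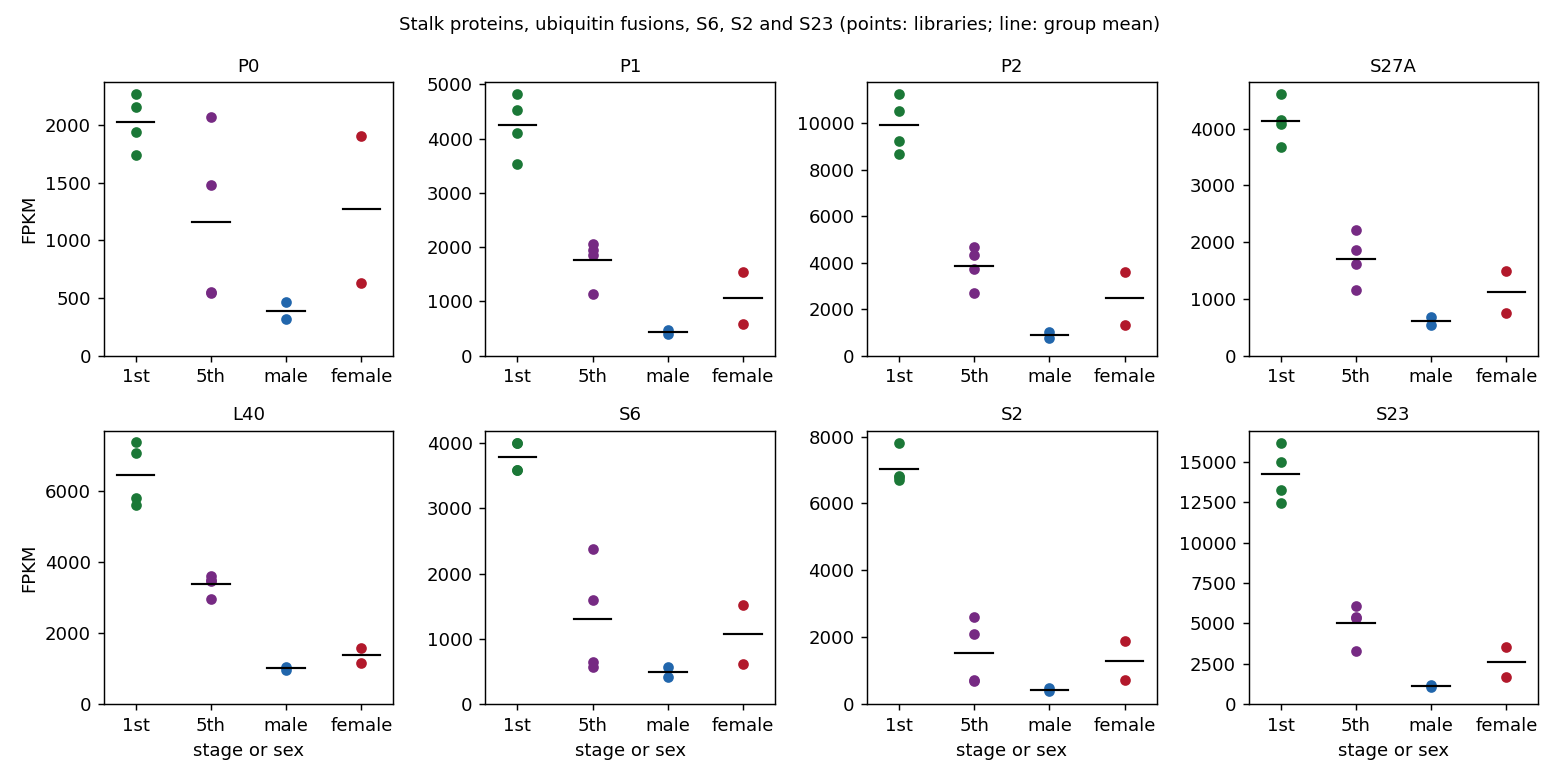
Points are the FPKM of single libraries and lines are group means, for 8 contigs by stage and adult sex on linear axes from 0. All 4 of the 1st instar pools lie above all other points for P1, P2, S27A, L40, S6, S2 and S23, while for P0 5th instar replicate 1 reaches 2073 FPKM, within the 1st instar range, as does female replicate 3 at 1907 FPKM.

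The ubiquitin fusions S27A and L40 are made joined to ubiquitin, which is cut off to leave the ribosomal protein. S27A (c75697_g1_i1), of the small subunit, had 4155, 3673, 4075 and 4610.00 FPKM in the 1st instar pools, 2217, 1605, 1858 and 1153 FPKM in the 5th instar pools, 676 and 536 FPKM in the male pools and 1484 and 757 FPKM in the female pools. L40 (c61302_g1_i1), of the large subunit, had 7071, 5620.2, 5797 and 7376 FPKM in the 1st instar pools, 3458, 3625, 3511 and 2963 FPKM in the 5th instar pools, 1039 and 977 FPKM in the male pools and 1592 and 1164 FPKM in the female pools. The 5th instar pools of L40 lay closer together than those of S27A. The changes from the 5th to the 1st instar were 1.31 ± 0.30 (SE, limma adjusted p = 0.0054) for S27A and 0.93 ± 0.18 (SE, limma adjusted p = 0.0023) for L40. S6 (c49164_g1_i1), the small subunit protein phosphorylated by the kinase downstream of the TOR growth pathway, had 3997, 3592, 3586 and 4007 FPKM in the 1st instar pools, 2384, 568, 1602 and 646 FPKM in the 5th instar pools, 574 and 424 FPKM in the male pools and 1528 and 622 FPKM in the female pools. Its 5th instar pools again split into a high pair and a low pair, and its change was 1.80 ± 0.48 (SE, limma adjusted p = 0.0118).

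Adults had lower FPKM of the ribosomal proteins than 1st instar larvae, in nearly every contig, and their median stayed lower under each scaling of the libraries that was tried. Of the 83 members tested, 80 were lower and 0 higher in adults (limma, adjusted p below 0.05), against 31.6% of all contigs called lower and 14.1% called higher. At an unadjusted p below 0.05 there were 81 calls, against 15100 of all 27678 contigs. The median change of the 78 abundant cytosolic contigs was -2.50, beside -0.12 for all contigs, and 77 did not overlap between the groups, against 32.9% of all contigs. Of the 209 other contigs at least as high as the lowest of the 78, 132 were lower and 18 higher. Their median change was -2.41, so a fall of this size was not particular to the ribosomal proteins. Among the members S2 fell most, by 8.07-fold in the means, with a change of -3.30 ± 0.52 (SE, limma adjusted p = 3.17e-04). S23 fell by 7.52-fold and L30 by 7.9-fold. L30 (c46785_g1_i1), of the large subunit, had 4752, 3844, 4373 and 4922 FPKM in the 1st instar pools, 1655, 1171, 1319.9 and 570.1 FPKM in the 5th instar pools, 414 and 393 FPKM in the male pools and 845 and 614 FPKM in the female pools, and every adult pool lay below every 1st instar pool. Its change from the 1st instar to adults was -3.04 ± 0.33 (SE, limma adjusted p = 1.83e-05). L4 was the exception among the abundant cytosolic contigs at -1.36 ± 0.56 (SE, limma adjusted p = 0.0653), with 495 and 394 FPKM in the male and 1343 and 569 FPKM in the female pools. With libraries scaled to one sum the same 78 contigs had a median change of -1.21 and 60 were lower, against 15.1% of all contigs. With quantile normalization it was -0.82 and 27 were lower, against 22.2% of all contigs.

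Between 5th instar larvae and adults the answer depended on how the libraries were scaled. In FPKM as deposited 48 of the 83 members were lower in adults and 0 higher (limma, adjusted p below 0.05), against 19.7% of all contigs called lower and 7.31% called higher, with a median change of -1.14 in the 78 abundant cytosolic contigs. At an unadjusted p below 0.05 there were 61 calls, against 10950 of all 27678 contigs. The calls also depended on the fit. With only the libraries compared, 10 of the contigs named in this report lost their call, and 3471 of all 27678 contigs were lower. The smaller count of members is given at the end. The groups did not overlap for 21 of the 78 contigs, against 16.1% of all contigs. Of the 209 other contigs at least as high as the lowest of the 78, 136 were lower and 26 higher. Their median change was -2.75, a larger fall than that of the 78. With libraries scaled to one sum (TPM), 0 of the 78 passed in either direction and their median change was -0.03, while the calls over all contigs turned from 7.31% higher and 19.7% lower to 28.1% higher and 11.5% lower. The median of all contigs then lay at 0.53, beside -0.19 in FPKM. With scaling by the median of ratios, 43 of the 78 were lower, at a median change of -1.01, against 17.9% of all contigs. Relative to the median of all contigs, the median of the 78 contigs was -0.95 in FPKM, -0.90 with the median of ratios, -0.56 in TPM and -0.05 with quantile normalization.

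**Figure D4:**
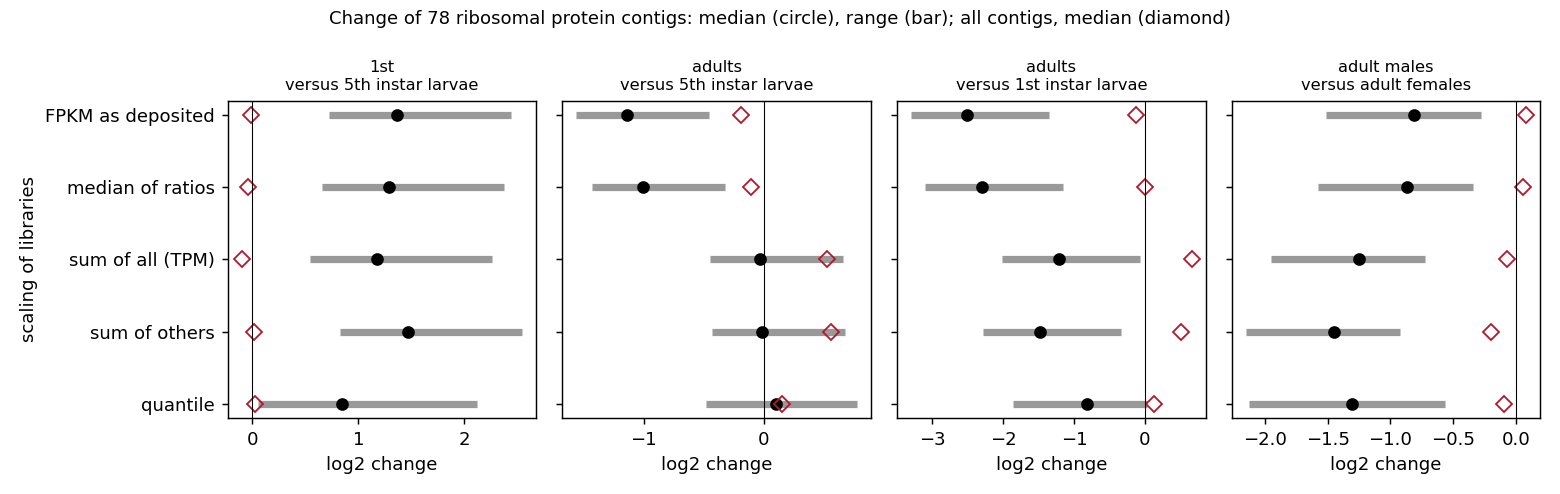
For each comparison and each scaling of the libraries, the circle is the median log2 change of the 78 abundant cytosolic contigs, the bar their full range and the diamond the median of all 27678 contigs tested. In adults against 5th instar larvae the circle moves from -1.14 in FPKM to -0.03 in TPM, while in the other comparisons it stays on its side of 0 under each scaling.

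The members with the largest fall from 5th instar larvae to adults in FPKM were L35, S7 and L19. L35 (c51737_g3_i1), a large subunit protein at the mouth of the exit tunnel, had 10802, 8399.6, 8707 and 10501 FPKM in the 1st instar pools, 3883, 4560.5, 3550.1 and 3276 FPKM in the 5th instar pools, 1115 and 1028 FPKM in the male pools and 1718 and 1379.7 FPKM in the female pools. S7 (c7123_g1_i1), a small subunit protein, had 7454, 6217, 6556 and 7843 FPKM in the 1st instar pools, 2811, 3205, 2368 and 2173 FPKM in the 5th instar pools, 653 and 587 FPKM in the male pools and 1867 and 865 FPKM in the female pools. L19 (c51312_g2_i1), which forms a bridge between the subunits, had 9520.00, 7714, 8225 and 9513 FPKM in the 1st instar pools, 4119, 4069, 3534 and 3303 FPKM in the 5th instar pools, 972 and 837 FPKM in the male pools and 2476 and 1393 FPKM in the female pools. In all of them, every adult pool lay below every 5th instar pool. The changes were -1.56 ± 0.19 (SE, limma adjusted p = 7.79e-05) for L35, -1.56 ± 0.31 (SE, limma adjusted p = 0.0031) for S7 and -1.53 ± 0.29 (SE, limma adjusted p = 0.0018) for L19, and L40 fell likewise by 2.84-fold, with -1.53 ± 0.18 (SE, limma adjusted p = 6.06e-05). P0, S6 and S2, by contrast, had changes of -0.59 ± 0.55 (SE, limma adjusted p = 0.472), -0.65 ± 0.48 (SE, limma adjusted p = 0.35) and -0.86 ± 0.52 (SE, limma adjusted p = 0.253), and their groups overlapped. In TPM the changes of these 3 contigs were 0.52, 0.46 and 0.25, with the direction turned and no call. Taken as males alone, adults had 61 members lower than 5th instar larvae, against 18.8% of all contigs. Taken as females alone, adults had 22 lower, or 26.5% of the members against 19.8% of all contigs. Both fits were added once the data had been seen.

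Females had more ribosomal protein RNA than males in nearly every contig, but few contigs passed. Of the 83 members, 2 were lower in males and 0 higher (limma, adjusted p below 0.05), against 5.56% of all contigs called lower and 6.82% called higher. Without adjustment, 31 members had a limma p below 0.05, against 7040 of all 27678 contigs. With 2 pools of each sex, an exact test cannot reach a p below 0.333. Of the 78 abundant cytosolic contigs, all had a negative change, with a median of -0.81 beside 0.09 for all contigs, and 74 had both male pools below both female pools, against 20.2% of all contigs. Of the 209 other contigs at least as high as the lowest of the 78, 4 were lower and 18 higher, at a median change of 0.04. The 2 members that passed were S25 and L19. S25 (c85519_g1_i1), a small subunit protein needed by some viral RNAs for translation without a cap, had 732 and 437 FPKM in the male pools and 1946 and 1144 FPKM in the female pools, a change of -1.40 ± 0.38 (SE, limma adjusted p = 0.0373). L19 (c51312_g2_i1), described above, had 972 and 837 FPKM in the male pools and 2476 and 1393 FPKM in the female pools, a change of -1.04 ± 0.27 (SE, limma adjusted p = 0.0294). P0 had the largest difference of the means, 3.25-fold, but its female pools, at 1907 and 632 FPKM, lay far apart, and its change was -1.51 ± 0.68 (SE, limma adjusted p = 0.195).

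The female pools themselves differed, and the difference between the sexes was larger with replicate 3 alone than with replicate 4 alone. The median of the abundant cytosolic contigs was 1595 FPKM in female replicate 3 and 839 FPKM in female replicate 4. Without female replicate 4, 35 members were lower in males, against 7.03% of all contigs, and the median change of the members tested was -1.30. Without female replicate 3, 0 were lower, against 3.18% of all contigs, and the median was -0.32. Leaving out a male pool left 0 calls as well. The larval pools, which share the estimate of the spread, also moved the count of 2: it was 8 without 5th instar replicate 4, 4 without 5th instar replicate 1, 1 without 5th instar replicate 3 or 1st instar replicate 2 or 4, and 0 without 1st instar replicate 1 or 3. Of all 27678 contigs, 1687 were lower in males without 5th instar replicate 4 and 1802 without 5th instar replicate 1. The other fits named here that leave out a larval pool gave 1198 to 1472. With libraries scaled to one sum, 59 of the 78 contigs were lower in males at a median change of -1.25, against 12.5% of all contigs, and the summed FPKM of the female libraries was 0.74 times that of the male ones. The summed FPKM of 25 ovary and egg contigs was 266 and 360.1 in the female pools and 19.5 and 28.1 in the male pools. That of 53 testis and sperm contigs was 314 and 372 in the male pools and 113 and 128 in the female pools. The summed FPKM of 68 muscle contigs was 8265 to 11127 in males and 4203 to 4904 in females, and that of the trypsin and chymotrypsin contigs was 818 to 827 in males and 349 to 355 in females. All 4 lists move with the sex without overlap, and their part in these values was not tested.

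The 5th instar pools stood apart from one another more than those of any other group. Over the 78 abundant cytosolic contigs, the correlation of log2 FPKM (Pearson's r) from library to library was 0.989 to 0.995 in the 1st instar, 0.975 between the male pools and 0.871 between the female pools. In the 5th instar it was 0.944 between replicates 1 and 3 and 0.951 between 2 and 4, but 0.696 to 0.875 across these pairs. Over all contigs tested, on log2(FPKM + 1), r was 0.8635 and 0.8566 within these pairs and 0.7246 to 0.8675 across them. The highest of these was between replicates 3 and 4, so the split into these pairs was not seen over all contigs. The correlations are across contigs of the same libraries, which are not independent. The SD of log2 FPKM among the 78 contigs was 0.47 and 0.57 in replicates 1 and 3 but 1.03 and 0.88 in replicates 2 and 4. Replicates 2 and 4 both lay below replicates 1 and 3 for 56 of the 78 contigs. The ratio of the means of replicates 1 and 3 to those of 2 and 4 had a median of 1.499 and was at least 2 for 24 contigs, at least 3 for 14 and below 1.1 for 13. These contigs were ranked after their values were seen. The same counts over all contigs are not given here, so these do not single out the ribosomal proteins. Summed FPKM of the whole library was also lower in replicates 2 and 4, at 1117413 and 1074573, than in 1 and 3, at 1342960 and 1460003.

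The difference within the 5th instar reached most contigs, but its size varied between proteins. L4, S3, L18A, S16 and S26 had the largest ratios of replicates 1 and 3 to 2 and 4, at 4.69, 4.32, 3.72, 3.50 and 3.39. S3 (c49346_g1_i1), a small subunit protein at the entry of the messenger RNA, had 2036, 345, 1179 and 399 FPKM in the 5th instar replicates and 2011, 1819, 1739.99 and 2027 FPKM in the 1st instar. At the other end L35, L19 (c51312_g1_i1), S7, L24 and L37 had ratios of 0.949, 0.957, 0.963, 1.01 and 1.01. So the pools were close for these and differed several-fold for the contigs with the largest ratios. SA (c53566_g1_i1), outside the rule, differed like the latter, at 1059, 150.3, 749 and 244 FPKM, and L18 (c50335_g1_i1) too, at 2255, 548, 1457 and 572 FPKM. Transcripts of proteins of the same ribosome were therefore not in a common proportion in all pools. The position of the last residue in a Pfam domain gives a lower bound of the length of the protein and was known for 63 contigs. Over these the log2 ratio of replicates 2 and 4 to 1 and 3 ran against it with a Spearman's rho of -0.45 as a description, with medians of -0.50, -0.67 and -1.09 in the shortest, middle and longest 21 contigs. With log2 mean FPKM and with the change of adults from the 5th instar, which both include these pools, rho was -0.37 and 0.37. With the change of adults from the 1st instar, which holds no 5th instar pool, it was 0.31. It was 0.01 for the 1st against the 5th instar and -0.14 for males against females.

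Other lists also differed between these pairs of pools. The summed FPKM of the trypsin and chymotrypsin contigs was 134160.1 and 131073 in replicates 1 and 3 but 50921 and 65516 in replicates 2 and 4, and that of the testis and sperm contigs was 104 and 302 against 513 and 429. The testis and sperm list did not follow the pairs closely, since replicates 1 and 3 differed from each other. Its sum in replicate 1 lay below both female pools, at 113 and 128. In replicate 3 it lay near the male pools, at 314 and 372. The part of these differences in the levels of the ribosomal proteins was not tested. With 5th instar replicates 1 and 3 only, 45 members were higher in the 1st instar, at a median change of 1.03, against 21.1% of all contigs, and 74 were lower in adults, against 17.7%. With replicates 2 and 4 only, 81 were higher in the 1st instar, against 18.0% of all contigs, and 1 was lower, against 16.2%: the L20 contig c64224_g2_i1 at -0.98 ± 0.28 (SE, limma adjusted p = 0.0232). With these replicates 24 members, or 28.9%, were lower in adults, against 22.5% of all contigs. These fits were chosen after seeing the data.

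Proteins with a second contig gave a check within libraries. L13A had contigs of 2 unigenes, c42289_g2_i1 and c42289_g1_i1, at means of 3671 and 3357 FPKM, whose ratio within a library was 0.857 to 1.23. L19, with c51312_g2_i1 and c51312_g1_i1 at means of 4639.8 and 3601 FPKM, had a ratio of 1.03 to 1.47. These pairs kept their ratio within narrow limits across stages, and the table does not show whether they are copies of a gene or pieces of 1 transcript. Fragments shared between near-identical contigs could be split either way by the authors' counting. S11 (c34083_g1_i1 and c34083_g1_i2) and S16 (c51653_g1_i1 and c51653_g1_i2) each had a pair of isoforms of 1 unigene. The other protein with 2 unigenes above a mean of 10 FPKM was L20, of the organellar set.

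Of the 4 organellar contigs, 3 were higher in the 1st instar than in the 5th, against 21.7% of all contigs. Lower in adults than in the 1st instar were 3, against 31.6% of all contigs. These are the directions of the cytosolic contigs, in a set of only 4. The difference between the sets was not tested. L7/L12 (c53478_g1_i1), the stalk protein of bacterial and mitochondrial ribosomes, had 163, 122, 117 and 158 FPKM in the 1st instar pools, 17.5, 18.9, 19.8 and 50.5 FPKM in the 5th instar pools, 15.97 and 14.1 FPKM in the male pools and 14.97 and 26.9 FPKM in the female pools. The 1st instar pools lay above all others, and 5th instar replicate 4 stood above the other 5th instar pools. Its change from the 5th to the 1st instar was 2.47 ± 0.34 (SE, limma adjusted p = 1.98e-04), the largest of all members. L20 (c51920_g1_i1), of the large subunit, had 107, 75.8, 82.1 and 100.5 FPKM in the 1st instar pools, 16.9, 19.9, 13.7 and 36.8 FPKM in the 5th instar pools, 14.8 and 16.1 FPKM in the male pools and 16.6 and 21.3 FPKM in the female pools, with a change of 2.10 ± 0.28 (SE, limma adjusted p = 1.79e-04). The second L20 contig (c64224_g2_i1), described as a 50S protein, had 23.6, 20.1, 18.3 and 24.4 FPKM in the 1st instar pools, 9.54, 43.6, 18.98 and 42.8 FPKM in the 5th instar pools, 13.8 and 18.1 FPKM in the male pools and 14.3 and 8.52 FPKM in the female pools. It did not follow the first, and its change of -0.17 ± 0.42 (SE, limma adjusted p = 0.793) did not pass. The ratio of the contigs went from 4.56 in a 1st instar pool to 0.456 in a 5th instar pool. L41 (c49361_g1_i1) had 59.6, 45.6, 47.5 and 58.8 FPKM in the 1st instar pools, 11.5, 15.6, 9.78 and 20.03 FPKM in the 5th instar pools, 17.2 and 15.6 FPKM in the male pools and 14.5 and 13.1 FPKM in the female pools, with a change of 1.86 ± 0.23 (SE, limma adjusted p = 1.05e-04). From the 1st instar to adults L7/L12 changed by -2.92 ± 0.34 (SE, limma adjusted p = 2.94e-05), L20 (c51920_g1_i1) by -2.34 ± 0.28 (SE, limma adjusted p = 4.21e-05) and L41 by -1.74 ± 0.23 (SE, limma adjusted p = 9.55e-05), while the second L20 contig, at -0.66 ± 0.42 (SE, limma adjusted p = 0.223), did not pass. None of the 4 passed in adults against 5th instar larvae (limma, adjusted p below 0.05), with 0 at an unadjusted p below 0.05. The 62 contigs described as mitochondrial ribosomal proteins had in the 1st instar a summed FPKM 3.77 times that in the 5th, without overlap. That in the 5th instar was 1.07 times that in adults, and that in females 1.08 times that in males, with overlap in both cases.

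The translation machinery around the ribosome was read from lists of words. The counts below stand against 21.7% of all contigs called higher and 18.4% called lower in the 1st instar, and 5.56% called lower and 6.82% called higher in males. Of 51 ribosome biogenesis contigs tested, 45 were higher and 1 lower in the 1st instar than in the 5th, at a median change of 2.47, and 35 were lower and 0 higher in males than in females. Fibrillarin (c54568_g1_i1), which methylates ribosomal RNA, had group means of 374 FPKM in the 1st instar, 25.7 in the 5th, 6.07 in males and 147 in females. Of 48 initiation factor contigs, 27 were higher and 3 lower in the 1st instar. Of 35 aminoacyl-tRNA synthetase contigs, which charge the transfer RNAs, 24 were higher and 0 lower. Of 14 elongation and release factor contigs, 5 were higher and 0 lower, and elongation factor 1-alpha (c421_g1_i1), which brings the charged transfer RNAs, had means of 5859, 4270.2, 1284 and 2821 FPKM in the 1st instar, the 5th instar, males and females. The 5 were 2 isoforms of elongation factor 1 delta, and 1 contig each of 1 beta', 1 epsilon-1 and a 1-alpha-like factor. The 3 initiation factor contigs that were lower were isoforms of 1 unigene, a CBP80/20-dependent factor of the first round of translation, and the biogenesis contig that was lower was TSR3 (c54777_g1_i1), at 0.25 FPKM in the 1st and 2.61 FPKM in the 5th instar. In the list of the TOR pathway, which ties growth to nutrients, 1 of 16 contigs was higher and 1 lower, or 6.25% each, below the shares of all contigs. The latter was the TOR kinase itself (c56404_g1_i1), with means of 20.8 and 62.2 FPKM in the 1st and 5th instar, a change of -1.53 ± 0.25 (SE, limma adjusted p = 6.47e-04), and the former La-related protein 1 (c60601_g1_i3), which binds messenger RNAs of ribosomal proteins in mammals, at 7.84 and 3.58 FPKM, a change of 1.12 ± 0.35 (SE, limma adjusted p = 0.0236). Between the sexes 2 of 62 mitochondrial ribosomal protein contigs (S9 and S22), or 3.23%, were lower in males and 0 higher, a share below that of all contigs, while 6 of 48 initiation factors and 8 of 35 synthetases were lower in males and 0 higher.

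The 162 contigs at a mean of 1.05 FPKM or less split by what they resemble. The nearest protein came from an insect for 61 contigs and from a vertebrate, fungus, plant, nematode or protist for 101. Of the 61, 59 were above 0 in some library, and 58 of these were at 0 in every 1st instar pool, or 98.3%. Among the other contigs above 0 with means up to 1.05 FPKM and a hit to the same insect genera the share was 16.7%. Their summed FPKM was 1.24, 0, 0 and 0 in the 1st instar pools, 44.6, 0, 33.4 and 0 in the 5th instar pools, 13.4 and 45.6 in the male pools and 44.0 and 10.6 in the female pools. The same 5th instar replicates 2 and 4 that stood apart above held none of them, with 0 of 61 contigs above 0 in each. These contigs carried 53 protein names, of which 50 were also names of abundant contigs.

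**Figure D5:**
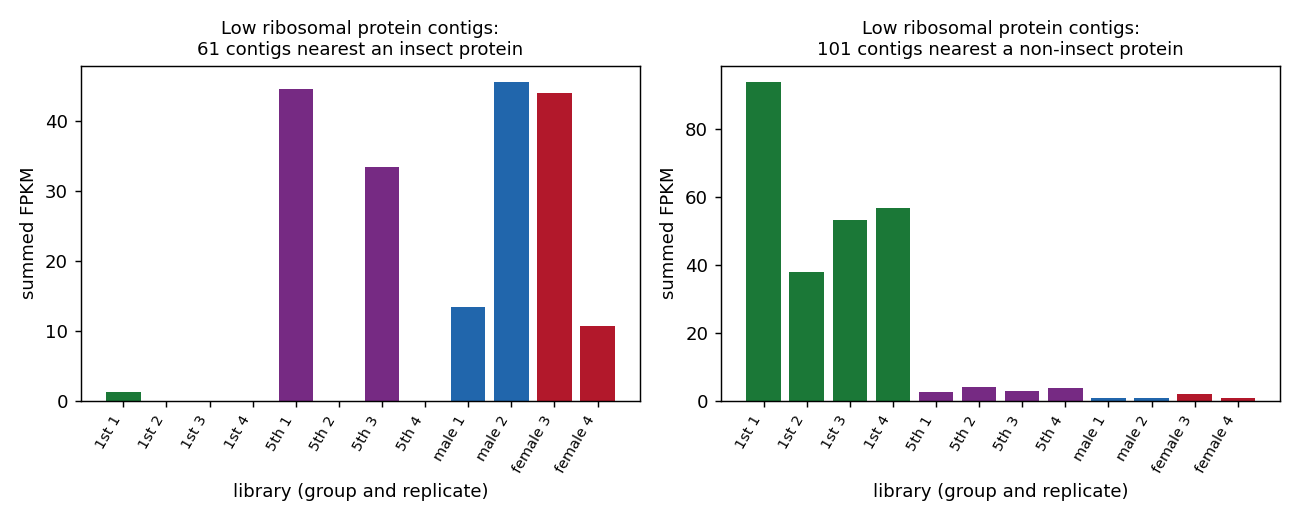
Bars give the summed FPKM in each library of low ribosomal protein contigs, the 61 with an insect hit on the left and the 101 with another hit on the right. The left set is at 0 in 1st instar replicates 2, 3 and 4 and in 5th instar replicates 2 and 4, and the right set lies between 37.8 and 93.9 FPKM in the 1st instar pools and at most 3.93 FPKM elsewhere.

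Of the 101 contigs with another hit, 96 were above 0 in some library, and 89 of these were above 0 only in the 1st instar, or 92.7%. Among the other contigs above 0 with means up to 0.714 FPKM and hits to the same genera the share was 85.1%, which is near that of the members. This pattern held for 43 of 49 contigs with a vertebrate hit, 22 of 24 with a fungal hit and 20 of 22 with a plant hit. Their summed FPKM was 37.8 to 93.9 in the 1st instar pools and 0.718 to 3.93 in the other pools. The names with the lowest leading contigs were all in this set: P3, at 0 in every library, and L2 and S0, at means of 0.0278 and 0.0846 FPKM. Where a value is near 0, it can rest on very few fragments.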

How the data were processed

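RNA-Seq of whole bodies was done by the authors, who selected poly(A) RNA, assembled the paired reads with Trinity 2.0.6, mapped them with Bowtie 0.12.7 and estimated 1 FPKM value per contig and library with RSEM 1.1.17, as the study's methods and the submitters' processing notes say. The deposited FPKM values are on a linear scale and hold no read counts, so depth is unknown and no count model was used. Each of 12 libraries was grouped by its label, and no column of values was left out.

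The 27678 contigs whose FPKM averaged at least 1 were tested on log2(FPKM + 1) by limma (version 3.58.1, R version 4.3.3, trend on). A fold change on this scale understates that of low contigs. All libraries entered 1 fit with 3 stages, and the sexes were compared in a fit with 4 groups. P-values were adjusted by Benjamini and Hochberg over all contigs tested, with a threshold of 0.05. Folds in the text are ratios of group mean FPKM. Of the 244 members, 161 were under the filter and were described only. Python 3.11.15, numpy 2.4.6, pandas 2.3.3 and matplotlib 3.10.9 did the rest, and the fits were tested on simulated data.

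Named contigs were, for each comparison, up to 3 with the largest change in each direction that passed without overlap at a mean of at least 10 FPKM, P0, P1, P2, S27A, L40 and S6, the 3 highest and 3 lowest leading contigs, and proteins with contigs of 2 unigenes; others are named as chosen after their values were seen. The members and lists were chosen with earlier results of these data known. Lists are words in nr descriptions, with spermine and spermidine enzymes and b-ZIP proteins taken out of the testis and ovary lists. Alternatives were pseudocounts of 0.1 and 5, other filters, scalings, groupings and fits, and leaving out each library. The table gives no sequences, and none are shown.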

Additional observations from a re-analysis of the deposited data

Results flagged for a closer look

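In groups of 4 libraries, a value was picked out when its gap to the nearest of the others was above Dixon's 95% critical value, and chance picks about 1 in 20 groups. Of 42 groups tested, 2 held such a value, beside 2.1 that chance gives. S2 (c49853_g1_i1) in 1st instar replicate 4 had 7794 FPKM, above the other pools of its group at 6711 to 6811 FPKM. L7/L12 (c53478_g1_i1) in 5th instar replicate 4 had 50.5 FPKM, above the other pools of its group at 17.5 to 19.8 FPKM.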

How the results depend on the processing

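Depth is unknown, so how far it limits a low value cannot be stated. Counts below are of members called higher and lower, then the median log2 change of the members tested. With no filter on low values (237 members tested) they were 104 and 1 with 0.63 for 1st versus 5th instar larvae, 2 and 44 with 0 for adults versus 5th instar larvae, 9 and 112 with -0.63 for adults versus 1st instar larvae, 3 and 1 with 0 for adult males versus adult females. Of all 97214 contigs then tested, the calls higher and lower were 9029 and 6110, 2180 and 5375, 4857 and 12069, and 4087 and 1777, in the same order. In TPM they were 66 and 0 with 1.18 for 1st versus 5th instar larvae, 1 and 0 with 0.015 for adults versus 5th instar larvae, 0 and 62 with -1.20 for adults versus 1st instar larvae, 0 and 59 with -1.24 for adult males versus adult females. The shares of all contigs called higher and lower were 14.8% and 16.6%, 28.1% and 11.5%, 35.2% and 15.1%, and 6.57% and 12.5%, in the same order. With libraries scaled by the sum of the other contigs they were 76 and 0 with 1.47 for 1st versus 5th instar larvae, 1 and 0 with 0.031 for adults versus 5th instar larvae, 0 and 71 with -1.47 for adults versus 1st instar larvae, 0 and 64 with -1.44 for adult males versus adult females. The shares of all contigs were 19.1% and 14.0%, 27.6% and 11.3%, 30.6% and 17.5%, and 6.16% and 15.8%, in the same order. With quantile normalization they were 25 and 0 with 0.84 for 1st versus 5th instar larvae, 1 and 0 with 0.11 for adults versus 5th instar larvae, 0 and 30 with -0.82 for adults versus 1st instar larvae, 0 and 58 with -1.29 for adult males versus adult females. The shares of all contigs were 19.4% and 15.4%, 14.4% and 13.8%, 19.9% and 22.2%, and 6.07% and 10.4%, in the same order. Among the added fits, 5th instar replicates 1 and 3 alone gave 45 higher in the 1st instar and 74 lower in adults, replicates 2 and 4 alone 1 lower in the 1st instar and 24 lower in adults, and females as the adults 22 lower than the 5th instar. With only the libraries compared, 15 were lower in adults than in the 5th instar and 0 in males than in females, where a pseudocount of 0.1 also gave 0. Of all 27678 contigs, 3471 and 294 were lower in these 2 fits, and 1590 with that pseudocount. Leaving out each library in turn gave medians of 1.19 to 1.49 for 1st versus 5th instar larvae, -1.37 to -0.94 for adults versus 5th instar larvae, -2.79 to -2.34 for adults versus 1st instar larvae, -1.30 to -0.32 for adult males versus adult females, with 66 to 79 higher in the 1st instar, 35 to 65 lower in adults than in the 5th instar, 79 to 81 lower in adults than in the 1st instar and 0 to 35 lower in males (35 without female replicate 4, 0 without female replicate 3, either male pool or 1st instar replicate 1 or 3). In the same stage fits, 4897 to 6490 of all 27678 contigs were higher in the 1st instar. Lower in adults were 4687 to 6215 against the 5th instar and 7815 to 9045 against the 1st. Same-numbered pools of different stages had correlated deviations of -0.16 to 0.08, so the numbers were not taken as pairs, and not every pool correlated best with its own number. With the replicate block, 76 members were higher in the 1st instar, and 46 and 80 were lower in adults than in the 5th and the 1st instar, with 2 named calls in adults against the 5th instar lost. The same calls over all contigs were 5535, 4977 and 8364. The female pools carry the numbers 3 and 4 in the titles but 1 and 2 in the column names, like the male pools, and no source says that a number marks a shared batch. Deviations of same-numbered pools of the sexes by column had a correlation of 0.34, and with a replicate block by column number, chosen after seeing the data, 1 member was lower in males (S25), with L19 (c51312_g2_i1) at an adjusted p of 0.0528 in limma. Over all 27678 contigs 1021 were lower in males with that block. Of 2100 alternative values of named contigs, 42 changed sign, none of them past the threshold. For 1st versus 5th instar larvae they were L20 c64224_g2_i1 at 0.097 (without 5th instar larvae replicate 2) and 0.088 (without 5th instar larvae replicate 4) and 0.63 (5th instar replicates 1 and 3 only). For adults versus 5th instar larvae these were, under TPM with L7/L12 0.61, S2 0.25, L20 c51920_g1_i1 0.82, L30 0.082, P0 0.52, S27A 0.053, S6 0.46, L37 0.18 and L20 c64224_g2_i1 0.21; the sum of others with L7/L12 0.63, S2 0.27, L20 c51920_g1_i1 0.84, L30 0.099, P0 0.53, S27A 0.069, S6 0.48, L37 0.19 and L20 c64224_g2_i1 0.23; quantiles with L7/L12 0.27, S2 0.27, L20 c51920_g1_i1 0.47, L30 0.11, P0 0.63, S27A 0.057, S6 0.55, L37 0.48, L13A c42289_g2_i1 0.019, L13A c42289_g1_i1 0.11 and L19 c51312_g1_i1 0.057; without 5th instar larvae replicate 4 with L20 c51920_g1_i1 0.036; 5th instar replicates 1 and 3 only with L20 c51920_g1_i1 0.16; 5th instar replicates 2 and 4 only with P0 0.25 and S6 0.19; females only with P0 0.17. For adults versus 1st instar larvae they were L20 c64224_g2_i1 at 0.56 (TPM) and 0.31 (the sum of others) and 0.091 (quantiles). For adult males versus adult females they were L7/L12 c53478_g1_i1 at 0.0018 (without adult females replicate 4), L20 c64224_g2_i1 at -0.12 (the sum of others). Leaving out libraries in turn, L20 c64224_g2_i1 ranged from -0.60 to 0.097 for the 1st against the 5th instar, L20 c51920_g1_i1 from -0.42 to 0.036 for adults against the 5th instar and L7/L12 c53478_g1_i1 from -0.80 to 0.0018 for males against females. The other members' counts and medians, and the shares, stayed within 1.5 times or 1 SD. The causes were not tested.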
